A study of Sus scrofa with 12 samples.

Results

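The growth hormone (GH) and insulin-like growth factor (IGF) axis was examined in the liver of Jinhua (JH) and Landrace (LD) pigs through 10 genes fixed by symbol: the GH receptor GHR, its signal carrier STAT5B, its feedback inhibitor SOCS2, the ligands IGF1 and IGF2, the binding proteins IGFBP1, IGFBP2, IGFBP3 and IGFBP4, and IGFALS, the acid-labile subunit that holds IGF in the blood. These 10 were among 31694 listed genes, and they were chosen with earlier results of these data known. The JH pig is a slow growing and fat Chinese breed, and the LD pig is a fast growing lean breed that served as the control. Liver was taken from 3 JH and 3 LD pigs, all uncastrated males of 70 days of age, and gave 1 mRNA library per pig. Expression is given as RPKM, the reads of a gene per kilobase of its length and per library size, so levels of different genes can be compared per length. Each library is written as its breed and replicate number, such as JH1.

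The liver is the main source of circulating IGF1. GH binds GHR on hepatocytes, the kinase JAK2 then activates STAT5B, and STAT5B drives transcription of IGF1, IGFALS and SOCS2. Most IGF in blood travels in a complex of IGF, IGFBP3 and IGFALS, and in the liver IGFBP3 is made mostly by non-parenchymal cells. IGFBP1 is a short-lived binding protein that insulin represses, IGFBP2 is a further liver binding protein, and IGFBP4 mostly restrains IGF action in tissues.

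GHR and IGFBP3 were lower in JH pigs, with LD levels 3.26 and 2.90 times those of JH. IGFALS had a lower JH mean, but its values overlapped between the breeds. IGF1 and SOCS2 had lower JH means with wide overlap, and the JH and LD means of STAT5B and IGFBP4 lay within 1 SD of each other. IGFBP1 differed far more between pigs of a breed than between the breeds. Of the 10 genes, 8 had enough expression to be tested, with 0.5 RPKM or more in 3 or more libraries, and IGF2 and IGFBP2 were listed at 0 in all 6 libraries.

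The call used limma on log2(RPKM + 0.1) over all 12993 genes tested, and asked for a log2 fold change beyond 1 in either direction with a p, adjusted by Benjamini-Hochberg, under 0.05. The p-values set the difference between the breed means against the spread between pigs of the same breed, with limma moderating that spread over all genes. By this rule 2 of the 8 tested members were called, GHR and IGFBP3, both lower in JH. Over all genes tested 2.39% were called, 1.36% as lower in JH. Without adjustment, 3 members had a p under 0.05, all lower in JH (GHR, IGFBP3 and IGFALS), against 17.9% of all genes tested, 9.51% as lower and 8.35% as higher in JH. Across the 8 members the median log2 difference, JH minus LD, was -0.75, beside 0.037 over all genes tested. Because the members were chosen with earlier results of these data known, these counts and this median are descriptive only.

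Between 5744914 and 7914522 reads per library stood behind the RPKM, as recovered from the values themselves, with the lowest number in JH1. These totals are what the RPKM were divided by, and in each library they are below the clean reads that the paper reports. The log2 values of 2 libraries correlated across genes with r between 0.939 and 0.942 within JH, between 0.948 and 0.953 within LD and between 0.896 and 0.924 across the breeds. The ribosomal RNA gene RN18S ranged from 1570 RPKM in JH2 to 62257 RPKM in JH3. Within LD it was highest in LD3, at 20160 RPKM. The median log2 value of the genes tested was 2.10 in JH3 and in LD3, and between 2.35 and 2.42 in the other libraries. The main fit did not scale the libraries to each other, while quantile and median scaling were alternatives. The hepatocyte genes ALB (27533 to 53893 RPKM) and APOA1 (7399 to 22277 RPKM) were high in every library.

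GHR, the receptor through which GH acts on the liver, was at 13.5, 14.1 and 21.8 RPKM in JH1 to JH3, against 62.9, 35.6 and 65.2 RPKM in LD1 to LD3. The highest JH value lay below the lowest LD value. The mean was 16.5 ± 4.64 RPKM (SD, n = 3) in JH and 54.6 ± 16.5 RPKM (SD, n = 3) in LD. JH differed from LD by -1.71 on the log2 scale (SE 0.32, 95% interval -2.42 to -0.99, adjusted p = 0.0336 from limma), which makes the LD level 3.26 times that of JH. GHR held place 156 of all genes tested when ordered by p. Between 149 and 325 reads per JH library and between 541 and 993 per LD library fell on the gene. Leaving out any 1 library kept the log2 fold change of GHR between -1.99 and -1.55. The call was lost in 4 of these 6 fits, where the adjusted p from limma was 0.088 without JH1, 0.0963 without JH2, 0.128 without LD1 and 0.0949 without LD3, and the call held without JH3 or LD2.

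STAT5B, the transcription factor that GHR activates through JAK2, was at 8.46, 8.51 and 6.39 RPKM in JH1 to JH3 and at 9.40, 8.80 and 6.29 RPKM in LD1 to LD3. The breeds overlapped in full, and replicate 3 was the lowest library of each breed. Its log2 fold change was -0.06 (SE 0.26), with a 95% interval of -0.65 to 0.53. A difference of a doubling in either direction lies outside this interval, and smaller differences lie within it.

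SOCS2, a STAT5 target that damps GH signalling, was at 11.6, 5.37 and 4.32 RPKM in JH1 to JH3 and at 11.8, 23.8 and 6.57 RPKM in LD1 to LD3. The values overlapped because JH1 stood beside LD1 and above LD3. The mean was 7.09 ± 3.92 RPKM (SD, n = 3) in JH and 14.1 ± 8.81 RPKM (SD, n = 3) in LD. With a log2 fold change of -0.92 and an SE of 0.50, SOCS2 was not called (adjusted p = 0.375 from limma).

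**Figure D1:**
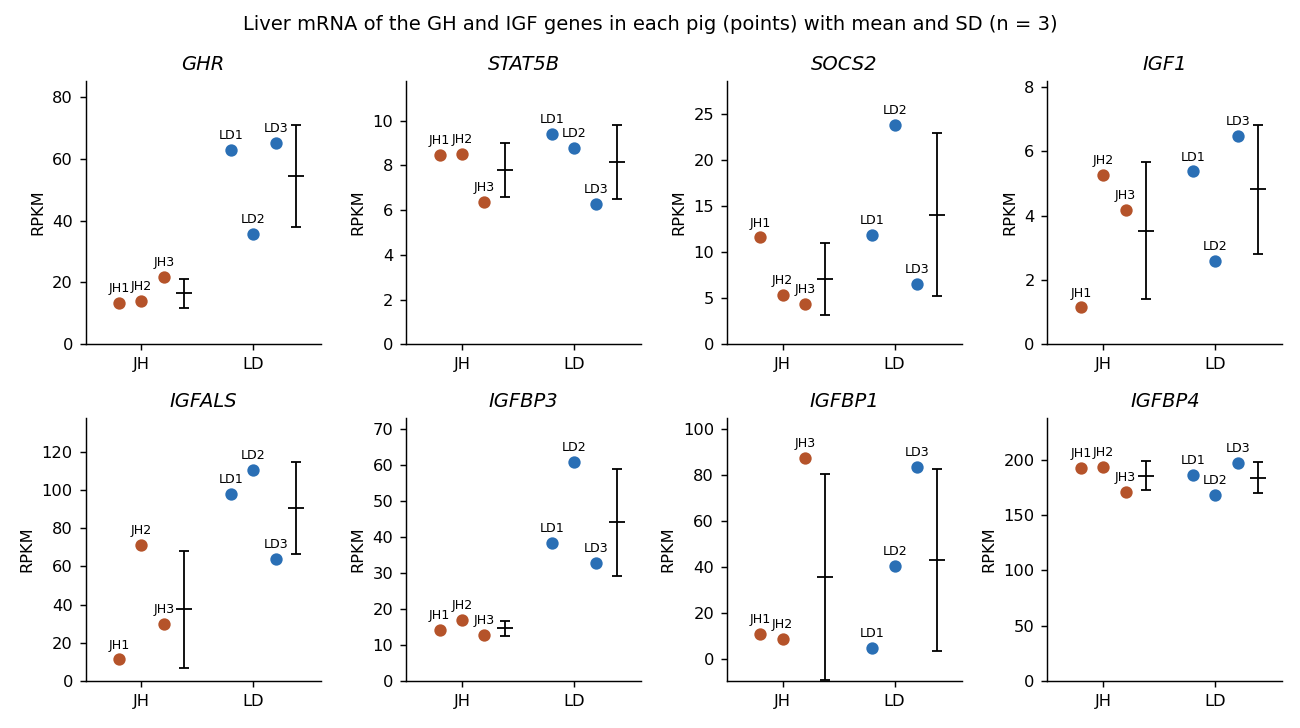
RPKM of the 8 tested members in each JH (orange) and LD (blue) library, with points labelled by library and the breed mean and SD (n = 3) as a black bar at the right of each group. GHR and IGFBP3 are the panels in which no JH point reaches an LD point, IGFBP4 lies between 168 and 197 RPKM in every library, and IGFBP1 spreads from 4.88 to 87.2 RPKM.

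IGF1, the hormone itself, had the lowest mean RPKM over the 6 libraries among the 8 tested members. It was at 1.14, 5.25 and 4.16 RPKM in JH1 to JH3 and at 5.37, 2.58 and 6.48 RPKM in LD1 to LD3. JH1 was below every other library, and JH2 and JH3 lay within the LD range. The JH1 value rested on 10 reads, with an exact Poisson 95% interval of 0.549 to 2.10 RPKM for counting error. JH over LD, IGF1 had a log2 fold change of -0.59 with an SE of 0.55 (adjusted p = 0.619 from limma), and without JH1 it was 0.059. The 95% interval of -1.83 to 0.66 covers JH levels well below and moderately above that of LD.

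IGFALS, which joins IGF and IGFBP3 in the large circulating complex, was at 11.2, 71.4 and 29.9 RPKM in JH1 to JH3 and at 98.0, 110 and 64.0 RPKM in LD1 to LD3. Only JH2 and LD3 crossed, and JH1 and JH3 were below every LD library. The mean was 37.5 ± 30.8 RPKM (SD, n = 3) in JH and 90.8 ± 24.1 RPKM (SD, n = 3) in LD. For IGFALS the log2 fold change was -1.61 (SE 0.57), close to that of GHR, but the JH pigs differed from one another by a factor of 6.36 and the gene was not called (adjusted p = 0.183 from limma, unadjusted p = 0.0192). Without JH2 the log2 fold change was -2.26 and the adjusted p was 0.06, and without JH1 the log2 fold change was -0.94. JH1 was the lowest of the 6 libraries for IGF1 and for IGFALS.

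IGF2, the second ligand, and IGFBP2 were listed at 0 in all 6 libraries. The same holds for 12080 of the 31694 listed genes, among them B2M and HPRT1, which nearly all cells express. A listed 0 was therefore not read as an absence of IGF2 or IGFBP2 mRNA, and no fold change was formed. The microRNAs miR-483, which lies in an intron of IGF2, and miR-675, which is cut from H19, were not among the 411 miRNAs listed in the small RNA data of the series, and the gene H19 was not listed by that symbol.

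**Figure D2:**
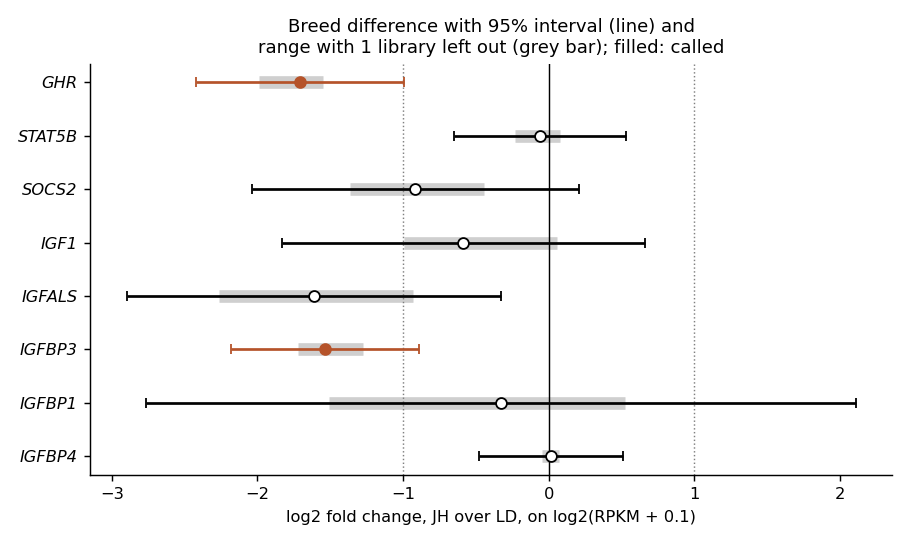
Log2 fold change of JH over LD on log2(RPKM + 0.1) for the 8 tested members, with the 95% interval as a line, the range over the 6 fits that leave out 1 library as a grey bar, and dotted lines at the fold change limits. The filled orange points of GHR (-1.71) and IGFBP3 (-1.54) are the called members, and the intervals of STAT5B and IGFBP4 are the narrowest around 0.

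The 3 binding proteins with reads behaved in 3 different ways. IGFBP3, the main carrier of IGF in blood, was at 14.2, 16.9 and 12.8 RPKM in JH1 to JH3, against 38.3, 60.8 and 32.7 RPKM in LD1 to LD3. The breeds did not overlap, and the JH pigs lay close together. The mean was 14.6 ± 2.10 RPKM (SD, n = 3) in JH and 43.9 ± 14.9 RPKM (SD, n = 3) in LD. JH differed from LD by -1.54 on the log2 scale (SE 0.29, 95% interval -2.18 to -0.89, adjusted p = 0.0336 from limma), and the LD level was 2.90 times that of JH. Between 68 and 109 reads per JH library and between 215 and 399 per LD library fell on IGFBP3. Leaving out any 1 library kept its log2 fold change between -1.72 and -1.28. The call was lost in 4 of these 6 fits too, where the adjusted p from limma was 0.0809 without JH1, 0.0656 without JH2, 0.105 without LD1 and 0.096 without LD2, and the call held without JH3 or LD3.

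IGFBP4 was the most abundant member, at 192, 194 and 171 RPKM in JH1 to JH3 and at 186, 168 and 197 RPKM in LD1 to LD3. It held place 400 of all genes tested by mean RPKM. No library stood out, and the highest JH pig exceeded the lowest by a factor of 1.13. IGFBP4 had a log2 fold change of 0.014 with an SE of 0.22, with a 95% interval of -0.48 to 0.51.

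IGFBP1, the binding protein under insulin control, was at 10.8, 8.78 and 87.2 RPKM in JH1 to JH3 and at 4.88, 40.3 and 83.5 RPKM in LD1 to LD3. JH3 and LD3 were high, JH1, JH2 and LD1 were low, and the breeds overlapped. The highest pig exceeded the lowest by a factor of 9.94 within JH and 17.1 within LD, the widest range within each breed among the 8 tested members. The reads ranged from 29 in LD1 to 565 in JH3. Its log2 fold change of -0.33, with an SE of 1.08, had a 95% interval of -2.77 to 2.11, which covers large differences in either direction.

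Set side by side per length, IGFBP4 made up between 62.5% and 88.5% of the summed RPKM of the 3 binding proteins. IGFBP3 made up 6.55%, 7.71% and 4.71% of the sum in JH1, JH2 and JH3, and 16.7%, 22.6% and 10.4% in LD1, LD2 and LD3, so that every JH share was below every LD share. IGFBP1 took between 2.13% in LD1 and 32.2% in JH3 with no order by breed. Relative to IGFBP4, which differed little among the libraries, the IGFBP3 level was between 7.40% and 8.74% in JH and between 16.6% and 36.1% in LD. These shares use the same values as the single genes and carry no further test.

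In two-sided exact permutation tests of single members, GHR and IGFBP3 each reached p = 0.1, which is the floor for 3 pigs per breed. The exact permutation p was 0.2 for IGFALS and SOCS2 and between 0.5 and 1.0 for IGF1, IGFBP1, IGFBP4 and STAT5B. Over all genes tested 23.4% had breeds that did not overlap and 12.5% had all JH values below all LD values, against 2 of the 8 tested members, GHR and IGFBP3.

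Some markers of other liver cells differed between the breeds as well, and their part in the lower IGFBP3 and GHR of JH was not tested. In liver pieces, fewer cells of a type and less RNA per cell cannot be told apart. For the marker counts below, the shares over all genes tested were 1.36% called lower and 1.02% called higher in JH. At an unadjusted p under 0.05 in limma, 9.51% were lower and 8.35% were higher in JH. The summed RPKM of 10 stellate cell and fibroblast markers was between 86.2 and 106 in JH and between 202 and 404 in LD. Each of the 10 was below 0 in log2 fold change, and 4 were called lower in JH, COL1A1, COL1A2, COL3A1 and LRAT, named here because they were called. LUM, named after its values were seen, met the filter only through LD, so its direction was favoured by the filter. COL3A1 and ACTA2 had the highest means over the 6 libraries in this list, although COL1A1 was above ACTA2 in the LD mean. Endothelial markers summed to between 180 and 291 RPKM in JH and between 228 and 285 in LD. CLEC4G and PECAM1 were highest by the mean over the 6 libraries, as are the pairs named for the lists that follow. CLEC4G alone was between 109 and 213 RPKM, so this sum follows mostly 1 gene. Of the 8 endothelial markers tested, 0 were called in limma, with 2 below LD at a raw p under 0.05. In log2 fold change 7 of the 8 were below 0 and 1 was above. For 3 of them all JH values were below all LD values, against 12.5% of all genes tested.

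Kupffer cell and macrophage markers, with C1QC and C1QA highest, summed to between 875 and 2044 RPKM in JH and between 1302 and 1519 in LD, and CD163 was listed at 0. The sums of lymphocyte markers, with NKG7 and PTPRC highest, overlapped too, with 27.8 to 103 RPKM in JH and 35.0 to 42.8 in LD. None of the 7 macrophage and 7 lymphocyte markers tested was called in limma. At an unadjusted p under 0.05 there were 2 macrophage markers, both higher in JH, and 0 lymphocyte markers. Bile duct markers, with SPP1 and KRT19 highest, summed to between 9.32 and 20.01 RPKM in JH and between 21.9 and 54.1 in LD, with KRT7 listed at 0 and EPCAM, named for its call, lower in JH. Red cell markers, with HBB and ALAS2 highest, summed to between 92.2 and 124 RPKM in JH and between 216 and 398 in LD, with HBB called lower in JH. Hepatocyte markers, with ALB and APOA1 highest, although TF was above APOA1 in each LD library, summed to between 60904 and 75190 RPKM in JH and between 79718 and 91824 in LD, and none of the 11 was called in limma, with 3 lower and 2 higher in JH at an unadjusted p under 0.05.

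**Figure D3:**
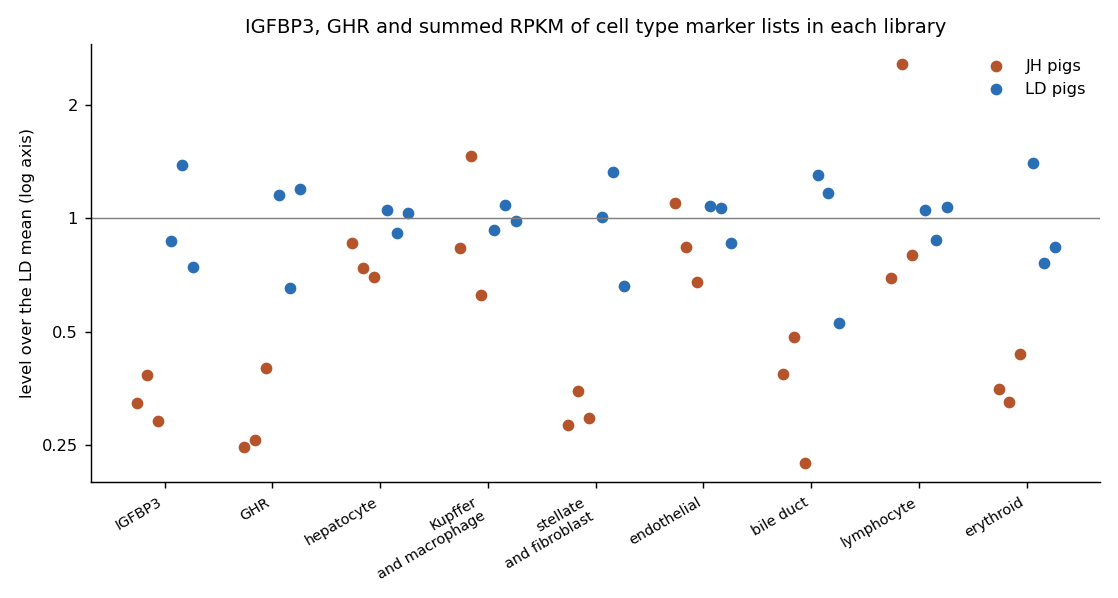
Level of IGFBP3, of GHR and of the summed RPKM of each marker list in every JH (orange) and LD (blue) library, divided by the LD mean of the same quantity, on a log axis. The JH points of IGFBP3, GHR and the stellate, bile duct and erythroid lists lie below all LD points of the same column, the hepatocyte list does so by a smaller step, and the macrophage, endothelial and lymphocyte lists overlap.

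Beyond the 10 members, 61 further genes of the axis were read from the same fit, of which 44 were tested, 5 were below the filter, 6 were listed at 0 and 6 were not listed. Of the 44, 1 was called higher in JH (FGF21) and 0 were called lower in limma, while 11 were lower and 4 were higher in JH at an unadjusted p under 0.05. Over all genes tested 2.39% were called, 1.02% as higher in JH, and 9.51% were lower and 8.35% higher at that unadjusted p. The count of 1 call, and that of 4 higher genes, are near these shares. The counts of the single lists below stand beside the same shares, with 1.36% of all genes tested called lower in JH. The median log2 difference of the 44 was -0.20. The lists were also chosen with earlier results of these data known, so their counts are descriptive only. FGF21, the 1 call and among the 4 higher genes, met the filter through JH. STC1, among the 11 lower genes, met it only through LD. Their directions were favoured by the filter, and both genes enter these counts and the median.

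FGF21, a hormone that the liver releases in fasting and on low protein diets and that lowers hepatic GH signalling in mice, was at 23.1, 10.3 and 5.93 RPKM in JH1, JH2 and JH3 and at 0.47, 0.94 and 0.09 RPKM in LD1, LD2 and LD3. FGF21 met the filter through JH, since only LD2 of the LD libraries reached 0.5 RPKM, and its direction was favoured by this. The JH pigs were all above the LD pigs, with between 68 and 197 reads per JH library and between 1 and 11 per LD library. FGF21 differed by 4.56 on the log2 scale (SE 0.66, adjusted p = 0.0117 from limma). It was 3.08 with a pseudocount of 1, since the LD values are close to 0, and without LD1 the adjusted p from limma was 0.0539.

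The list of other binding proteins, proteases and protease inhibitors of the axis gave 5 tested genes, IGFBP5, IGFBP6, IGFBP7, HTRA1 and STC1, and 0 were called in limma. Unadjusted, 4 of the 5 had a p under 0.05 with lower JH values, but STC1 was among these and met the filter only through LD, so its direction was favoured by the filter. HTRA1, a secreted protease that cleaves IGF binding proteins, was at 4.81 ± 1.78 RPKM (SD, n = 3) in JH and 13.1 ± 4.01 RPKM (SD, n = 3) in LD, a log2 difference of -1.43 with SE 0.33 and an adjusted p of 0.0621 from limma. IGFBP7, a matrix protein with weak IGF binding, was at 82.3 ± 15.4 RPKM (SD, n = 3) in JH and 159 ± 34.4 RPKM (SD, n = 3) in LD, a log2 difference of -0.94 with SE 0.26 and an adjusted p of 0.112 from limma. IGFBP6, which prefers IGF2, was low in both breeds with a log2 difference of -1.17 (limma, adjusted p = 0.222). The JH and LD values of HTRA1, IGFBP7 and IGFBP6 did not overlap. Lack of overlap was a condition for naming these genes, so it is no further result. Over all genes tested 23.4% did not overlap, and 12.5% had all JH values below all LD values.

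Among receptors and adaptors, 0 of 8 tested genes were called in limma and 3 were below LD at a raw p under 0.05. IRS1, the adaptor that carries the signal of the insulin and IGF1 receptors, was at 1.34 ± 0.39 RPKM (SD, n = 3) in JH and 2.95 ± 0.43 RPKM (SD, n = 3) in LD, a log2 difference of -1.11 with SE 0.31 and an adjusted p of 0.107 from limma. The IGF1 receptor IGF1R, scarce in hepatocytes, was at 0.57 ± 0.04 RPKM (SD, n = 3) in JH and 1.18 ± 0.21 RPKM (SD, n = 3) in LD, with a log2 difference of -0.91 (limma, adjusted p = 0.243). GRB14, an adaptor that inhibits the insulin receptor, had a log2 difference of -0.69 (limma, adjusted p = 0.221). The values of IRS1, IGF1R and GRB14 did not overlap between the breeds, as the naming rule required. INSR, the insulin receptor, named after its values were seen, overlapped with a log2 fold change of 0.25.

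Of the GH receptor signalling genes, 8 were tested and 0 were called in limma, with 1 higher in JH at an unadjusted p under 0.05. This was SOCS1, an inhibitor of JAK kinases, at 10.4 ± 4.16 RPKM (SD, n = 3) in JH and 4.59 ± 0.85 RPKM (SD, n = 3) in LD, a log2 difference of 1.09 with SE 0.34 and an adjusted p of 0.14 from limma. Without JH3, where calls over all genes rose from 310 to 406, SOCS1 was called higher in JH (log2 difference 1.42, adjusted p = 0.0422 from limma). With any other library left out SOCS1 was not called, with an adjusted p from limma between 0.203 and 0.321. PTPN11, a phosphatase of the same pathway, did not overlap either, as the naming rule required, with a small log2 difference of -0.28 (limma, adjusted p = 0.575). STAT5A and SOCS3 were listed at 0 in all libraries. CISH, a STAT5 target like SOCS2, was named after its values were seen, and was at 58.2, 7.98 and 9.79 RPKM in JH1, JH2 and JH3 and at 3.02, 30.2 and 14.8 RPKM in LD1, LD2 and LD3. JH1, the library with the lowest IGF1 and IGFALS, was the highest for CISH.

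In the PI3K, AKT and FOXO branch, which passes on the insulin and IGF1 signal, 12 genes were tested and 0 were called in limma, with 3 lower and 1 higher in JH at an unadjusted p under 0.05. The transcription factors FOXO1 and FOXO3, which insulin signalling keeps out of the nucleus, had log2 fold changes of -1.09 (SE 0.30, adjusted p = 0.108 from limma) and -1.47 (SE 0.46, adjusted p = 0.146 from limma). Without JH3, FOXO3 was called lower in JH (log2 fold change -1.99, adjusted p = 0.0311 from limma). With any other library left out FOXO3 was not called, with an adjusted p from limma between 0.228 and 0.354. EIF4EBP1, a brake on translation, had a log2 difference of 0.81 (limma, adjusted p = 0.207). The values of FOXO1, FOXO3 and EIF4EBP1 did not overlap between the breeds, as the naming rule required.

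Of the targets of FOXO other than IGFBP1, 5 were tested and 0 were called in limma, with 1 below LD at a raw p under 0.05. PCK1, the enzyme that commits carbon to gluconeogenesis and a target repressed by insulin like IGFBP1, was also named after its values were seen. It was at 753, 85.0 and 28.0 RPKM in JH1, JH2 and JH3 and at 99.4, 113 and 169 RPKM in LD1, LD2 and LD3. JH1 was the highest library for PCK1 and JH3 the lowest, while JH3 was the highest for IGFBP1.

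The genes known to respond to GH in the liver gave 1 call among 6 tested genes that were not members, FGF21, with 2 higher in JH at an unadjusted p under 0.05. Over all genes tested 1.02% were called higher in JH, and 8.35% were higher at that unadjusted p. FGF21 is 1 of the 2 and met the filter through JH, so its direction was favoured and its call says little about this list. The other of the 2 was CUX2, a transcription factor that follows the GH pulse pattern in rodent liver, at 5.67 ± 1.37 RPKM (SD, n = 3) in JH and 2.69 ± 0.14 RPKM (SD, n = 3) in LD. Its log2 fold change was 1.02 (SE 0.27, adjusted p = 0.0939 from limma), and the values did not overlap, as the naming rule required. The genes of the IGF2 locus and IGF2 mRNA binding gave 2 tested genes, IGF2BP2 and IGF2BP3, named as the only ones tested there, with log2 fold changes of -0.08 and 0.56, and neither was called in limma or reached an unadjusted p under 0.05.

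**Figure D4:**
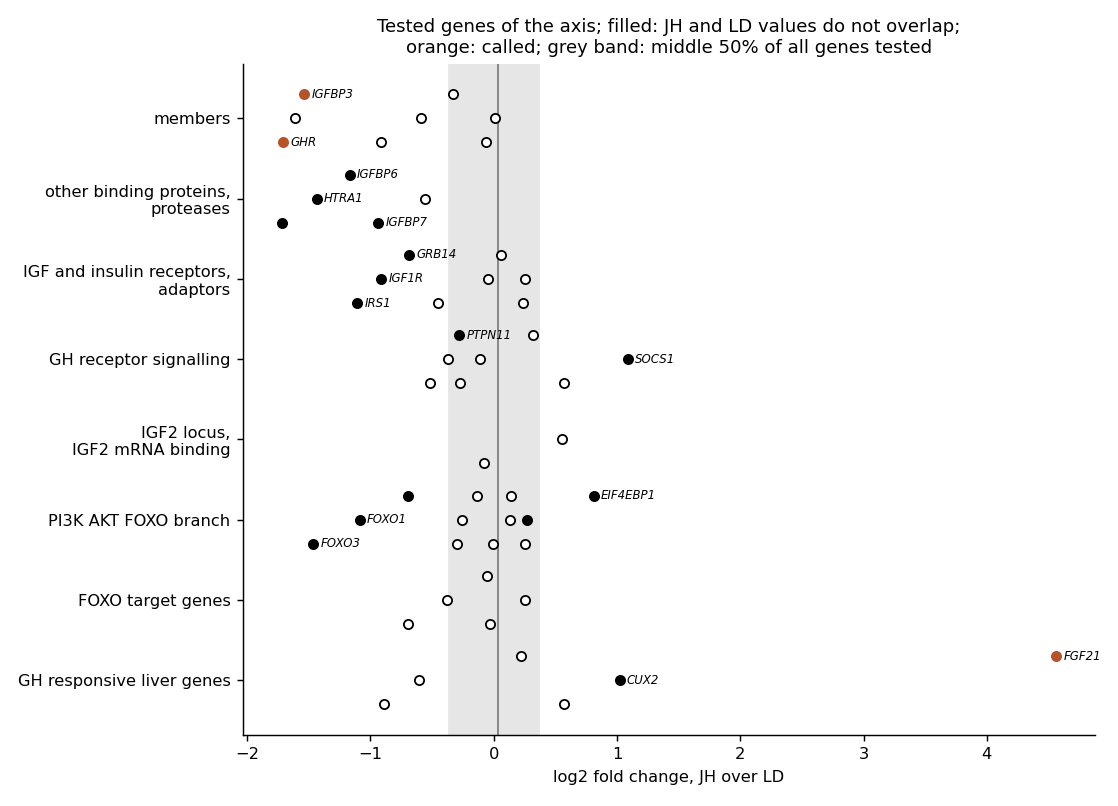
Log2 fold change of JH over LD for each tested member and each tested gene of the other lists, with filled points where no JH value overlaps an LD value, orange points for called genes, and a grey band for the middle 50% of all genes tested. GHR, IGFBP3 and FGF21 are the orange points, and the 5 tested genes of the list of other binding proteins and proteases lie below the band, with STC1, the leftmost of them, tested only through its LD values.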

How the data were processed

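Per the methods of the study, the authors cleaned short single-end reads, mapped them to the Sus scrofa genome with TopHat (TopHat2 2.0.13 in the submitters' processing notes), and used gfold for counting. The deposited unit is RPKM, as the authors computed it for each library. The files give no coordinates. The small RNA files were searched for names only. Here limma 3.58.1 (R 4.3.3) fitted log2(RPKM + 0.1) by breed, its variance prior following the mean level, for the 12993 genes that reached 0.5 RPKM in 3 or more libraries. The study used DEGseq, which needs counts. Fold changes are JH over LD, and on this scale they understate the change of low genes. Exact permutation tests used scipy 1.17.1.

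Whole reads were recovered by searching the total of each library and a length per gene that made the 6 RPKM of a gene whole within 0.03 reads, for 12885 of the 12993 tested genes (99.2%). Reads are not independent molecules, so they describe counting error only. The limma and recovery steps were tested on simulated data.

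Named genes are the 10 members, the called genes of each list and up to 3 per list with the smallest p and no overlap, plus genes said in the text to be named after their values were seen or for a call. Of the list symbols, 6 were matched by NCBI gene number (RefSeq, Sscrofa11.1), and 9 were not listed. The members and lists were chosen with earlier results of these data known. Alternatives were other pseudocounts and filters, quantile and median scaling, no fold change limit, robust eBayes, a replicate block, each library left out, and voom on recovered reads, which was added after the values were seen.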

Additional observations from a re-analysis of the deposited data

How the results depend on the processing

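GHR and IGFBP3 were called under all 10 alternatives that keep the 6 libraries. The alternative with no fold change limit reuses the main fit, so it could not lose a call. Over the 10, the adjusted p from limma was between 0.0136 and 0.0463 for GHR and between 0.0102 and 0.0442 for IGFBP3. With each library left out in turn, between 0 and 2 members were called, and fewer pigs are tested there. The number of called genes over all tested was 310, with 200 under no filter on low values, where 19614 genes are tested, and between 79 and 406 with 1 library left out. Called pathway genes went from 1 to 3 under quantile normalization (FGF21, HTRA1 and IGFBP7), to 2 under median scaling (FGF21 and HTRA1), to 2 with the replicate block (FGF21 and FOXO3), to 2 with voom on recovered reads (FGF21 and HTRA1), to 0 with an RPKM of at least 1 in all 6 libraries, where FGF21 is not tested, and between 0 and 3 with 1 library left out. Same-numbered JH and LD libraries deviated from their breed means with r of -0.016, 0.052 and 0.18 across genes for replicates 1, 2 and 3. Libraries of different number had r between -0.13 and 0.081, so the value for JH3 with LD3 was the highest. The numbers were not taken as pairs in the main fit. With the replicate block 253 genes were called, 2 of them members, and the adjusted p from limma was 0.0292 for GHR and 0.0253 for IGFBP3. The block changed no other call among the members.

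The direction changed for members near 0 or with a wide spread. The log2 fold change of IGFBP4 was -0.094 under quantile normalization, and with 1 library left out it ranged from -0.047 to 0.073. The same range was -0.23 to 0.076 for STAT5B, -1.51 to 0.52 for IGFBP1 and -0.99 to 0.059 for IGF1. Depth limits IGF1 most, with between 10 and 78 reads per library. The planned description of miR-483 and miR-675 was not run because neither name is listed, and the planned promoter description was not run because no sequence was used here.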

Other observations

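PAPPA2, a protease that frees IGF from IGFBP3 and IGFBP5, was below the filter and was not tested. It had 1, 0 and 2 reads in JH1, JH2 and JH3 and 6, 10 and 10 reads in LD1, LD2 and LD3. STC1, an inhibitor of the related protease PAPPA, had 1, 0 and 3 reads in the JH libraries and 4, 4 and 7 in the LD libraries. STC1 met the filter only through LD, so no test of it is given here. These reads are few and not scaled by library size. Neither the reads nor the RPKM of PAPPA2 and STC1 overlapped between the breeds, but both genes were named after their values were seen. Over all genes tested 23.4% did not overlap, and 12.5% had all JH values below all LD values. The direction of STC1 was favoured by the filter, and PAPPA2 is not among the genes behind these shares.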
